A study of Mus musculus with 40 samples.

Results

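The genes that write, maintain, read and remove DNA methylation were followed in mouse melanoma treated with 2 epigenetic drugs. The 10 genes are Dnmt1, Dnmt3a, Dnmt3b, Uhrf1, Hells, Tet1, Tet2, Tet3, Tdg and Mbd2, and their members on the array are all probe sets that name 1 of these symbols alone. These are 20 probe sets of 9 genes, out of 45141 probe sets and 17097 named genes. Tet1 is not analysed here because no probe set was named for it. By mean over all 40 arrays, 18 of the 20 lay above the background level of 4.47 (log2), which 95% of 83 probe sets for olfactory and vomeronasal receptors stay under by their means. The remaining ones are the dimmer of the Dnmt3b probe sets, 1418351_PM_a_at, and the dimmest Hells probe set, 1453361_PM_at.

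B16F10 is a cell line from a cutaneous melanoma of a C57BL/6 mouse. The arrays cover B16F10 cells in culture with OTX015 (4) and without (4), tumours of mice given OTX015 by mouth (10) with their own controls (11), and tumours of mice given guadecitabine by intraperitoneal injection (6) with their own controls (5). Tumours grew from B16F10 cells placed under the skin of C57black6J mice aged 8 weeks, so host and tumour cells share a background and the host keeps its immune cells. The labels name no gene alteration in any group, no dose, no length of treatment, no vehicle and no sex. Nothing in them shows that the replicates came from different dishes or mice, so p-values measure only the spread between these samples, which may be technical.

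Methylation of cytosine at CpG sites is set up by the methyltransferases Dnmt3a and Dnmt3b and copied to the new strand at each replication by Dnmt1. Uhrf1 recognises half-methylated CpG sites behind the replication fork and recruits Dnmt1, and Hells is a chromatin remodeller that lets methyltransferases reach packed DNA. Tet enzymes oxidise the methyl group, Tdg cuts out the oxidised base so that repair can restore cytosine, and Mbd2 binds methylated CpG sites and recruits a repressor complex. OTX015 blocks the bromodomains by which BET proteins bind acetylated histones. Guadecitabine releases decitabine, a cytidine analogue that traps Dnmt1 protein on DNA and leads to loss of methylation during replication, so it acts on the protein and not directly on the transcript measured here.

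All values are log2 array intensities, the deposited RMA values brought to a single distribution over the 40 arrays. Levels of different probe sets cannot be set against each other. This scaling was needed because the deposited means of the 10 OTX015-treated tumour arrays lay between 4.35 and 4.39, against 4.55 to 4.64 for the other 30 arrays. The 7 melanocyte markers averaged 11.2 to 11.7 in every array of every group. Of the 9 leukocyte markers measured, 2 lay above background in cultured cells and 6 or 7 in each tumour group, so the tumour samples hold host cells although the labels call them melanocytes and name no sort. In bulk samples, fewer cells of a type and less RNA per cell cannot be told apart. Hexim1, a gene known to rise under BET inhibition, averaged 9.22 ± 0.04 in OTX015-treated cells and 6.80 ± 0.17 in control cells (SD, n = 4 each), and Myc averaged 6.68 ± 0.07 and 7.94 ± 0.18. Both passed the test in cells (adjusted p = 4.1e-09 and 1e-06), and neither passed it in tumours (adjusted p = 0.373 and 0.671).

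Dnmt1, Uhrf1 and Hells act together at the replication fork, and by brightest probe set they varied together within groups, as described further on, although between groups they did not always move the same way. Their promoter windows, the 250 bases before each RefSeq start on GRCm38.p6, were searched on both strands for 4 E2F sequences, TTTCGCGC, TTTCCCGC, TTTGGCGC and TTTGCCGC, which are letters that E2F factors of the replication programme can bind. Among the 14 windows of 9 of the 10 genes (Mbd2 had none to search), 3 held a match, and they belonged to these 3 genes. Over all 32851 windows of the table, 611 held a match, or 1.86%. Each of the 4 sequences contains CG, and the matching windows of Dnmt1, Uhrf1 and Hells held 26, 30 and 28 CpG sites. Over all windows the median was 6 and the upper quartile 16. Most of the windows over which the share of 1.86% is taken therefore held fewer CpG sites than these 3. The member windows without a match held 2 to 51. The match stands in capitals below with 11 bases on either side, since it is the feature these windows share.
Dnmt1, chr9:20952824-20952853, minus strand: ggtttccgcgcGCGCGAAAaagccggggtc
Uhrf1, chr17:56304117-56304146, plus strand: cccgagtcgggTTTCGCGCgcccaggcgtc
Hells, chr19:38930917-38930946, plus strand: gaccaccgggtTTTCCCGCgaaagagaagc
The match lay 219 to 212 bases before the start in Dnmt1, where it reads as the reverse complement, 185 to 178 before the start in Uhrf1 and 62 to 55 before the start in Hells. The Dnmt1 window precedes the start that lies farthest into the gene of its 3 RefSeq starts. The Uhrf1 window precedes the second of 2. The E-box CACGTG, which Myc with its partner Max can bind, was found in 2 of the 14 windows, those of Tdg and of the most downstream of 3 Dnmt3a starts, and in 6.02% of all windows. A match in these letters is a description and not a site of binding.

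**Figure D1:**
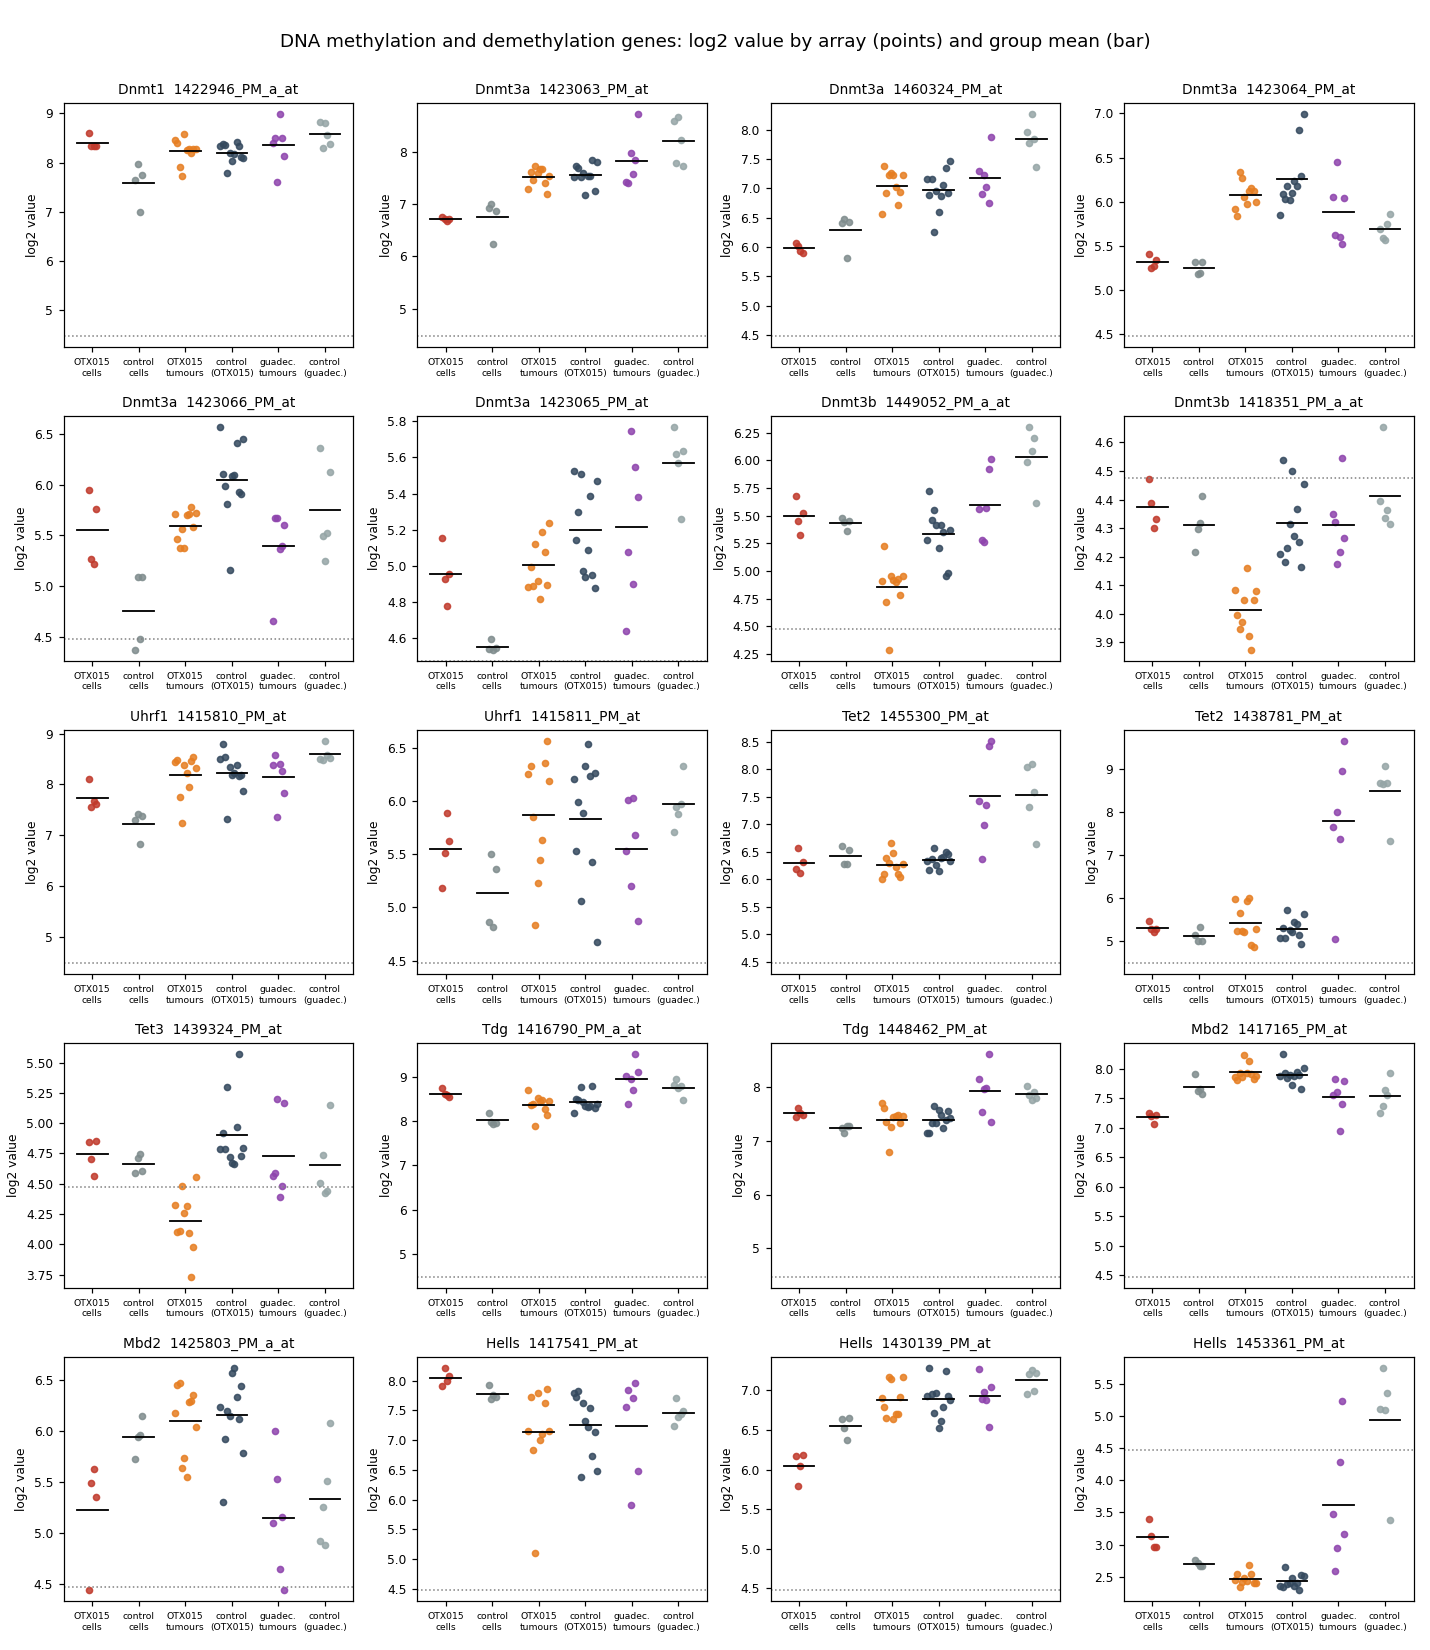
Log2 value of each of the 20 probe sets (panels) in each of the 40 arrays (points), by group from left to right, with the group mean as a bar and the background level of 4.47 as a dotted line. Dnmt1, Uhrf1 and Tdg stand higher in OTX015-treated than in control cells, Tet3 and Dnmt3b stand lower in OTX015-treated than in control tumours, and both Tet2 probe sets reach their highest values in the tumours of the guadecitabine experiment.

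OTX015 in cultured B16F10 cells raised Dnmt1, Uhrf1 and Tdg and lowered Mbd2. By limma with Benjamini-Hochberg adjustment over all 45141 probe sets, 11 of the 20 probe sets passed at an adjusted p under 0.05, 8 higher and 3 lower, where 29.8% of all probe sets passed (15.2% higher, 14.7% lower). With each gene represented by its brightest probe set, 5 of 9 genes passed, 4 higher and 1 lower, where 38% of all genes passed (17.9% higher, 20.1% lower). The 20 probe sets had a median difference of 0.14, against 0.01 over all probe sets. With all 6 groups in a single fit 5 of the 20 passed: Dnmt1, Dnmt3a 1423066_PM_at and the brighter Tdg probe set as higher, and Hells 1430139_PM_at and the brighter Mbd2 probe set as lower.

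Dnmt1, the maintenance methyltransferase, measured 8.61, 8.34, 8.34 and 8.33 in OTX015-treated cells and 7.64, 7.97, 7.01 and 7.75 in control cells. The groups did not overlap. The difference was 0.81 ± 0.17 (SE), or 1.76-fold (adjusted p = 0.003). Control replicate 3 was the lowest of the 4, and the call held without it. Uhrf1, the partner that brings Dnmt1 to half-methylated DNA, measured 8.10, 7.55, 7.67 and 7.61 in OTX015-treated cells and 7.31, 7.41, 6.82 and 7.37 in control cells with its brighter probe set, again without overlap. This was a rise of 0.50 ± 0.15 (adjusted p = 0.0219), which did not pass with all 6 groups in a single fit (adjusted p = 0.187). Its second probe set differed by 0.42 ± 0.18 and did not pass (adjusted p = 0.108), although it passed without OTX015 replicate 1 or control replicate 2, with a lowest adjusted p of 0.0254.

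The 3 Hells probe sets did not move as 1. The brightest, 1417541_PM_at, lay between 7.92 and 8.22 in the 4 OTX015-treated cell arrays and measured 7.93, 7.69, 7.75 and 7.73 in control cells, a rise of 0.28 ± 0.08 (adjusted p = 0.0234) with an overlap of 1 array on each side. That call was lost when OTX015 replicate 2 or 4, or control replicate 2 or 4, was left out (highest adjusted p = 0.0726), and with all 6 groups in a single fit (adjusted p = 0.785). It was also lost in the deposited values, by the mean of the Hells probe sets and with the replicate number as a block. Probe set 1430139_PM_at fell by 0.50 on the log2 scale (SE 0.10, adjusted p = 0.00222), with 5.79 to 6.18 in OTX015-treated cells and 6.37 to 6.65 in control cells. The dim probe set 1453361_PM_at rose by 0.41 ± 0.10 (adjusted p = 0.00628, or 0.53 with all 6 groups in a single fit) but stayed below background in all 8 arrays. Across the 40 arrays the 3 probe sets had correlations of -0.29 to 0.23 with each other within groups, so no single direction can be given for Hells in cells.

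Of the de novo enzymes, Dnmt3a was measured by 5 probe sets and Dnmt3b by 2. Dnmt3a rose by 2 of its 5, the dimmer ones. Probe set 1423066_PM_at measured 5.95, 5.27, 5.22 and 5.77 in OTX015-treated cells and 4.37, 5.09, 4.48 and 5.09 in control cells (difference 0.79 ± 0.20, adjusted p = 0.0107), and 1423065_PM_at differed by 0.40 ± 0.08 (adjusted p = 0.00216, or 0.0851 with all 6 groups in a single fit). The groups did not overlap in either. The brightest Dnmt3a probe set averaged 6.71 ± 0.04 in OTX015-treated cells and 6.76 ± 0.35 in control cells (SD, n = 4 each), with a difference of -0.05 (95% interval -0.36 to 0.27). The remaining Dnmt3a probe sets differed by -0.31 and 0.06 and did not pass (adjusted p = 0.11 and 0.57). Without control replicate 3, the lowest control array for Dnmt3a, the brightest probe set and 1460324_PM_at passed as lower (adjusted p = 0.0272 and 0.000357). Both Dnmt3b probe sets differed by 0.06, with 95% intervals that end at 0.24 and 0.21, and neither passed (adjusted p = 0.648 and 0.584).

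On the removal side, Tdg, the glycosylase that excises oxidised methylcytosine, had the smallest adjusted p of the 20 probe sets in cells. Its brighter probe set measured 8.75, 8.61, 8.58 and 8.55 in OTX015-treated cells and 8.19, 7.97, 7.93 and 7.97 in control cells. Every treated array lay above every control array. The rise was 0.61 ± 0.08, or 1.52-fold (adjusted p = 7.81e-05), and that of the second probe set was 0.28 ± 0.06 (adjusted p = 0.00617), which did not pass with all 6 groups in a single fit (adjusted p = 0.295). Mouse Tdg has near-identical pseudogenes, 1 of which shares a further probe set that was not used, so the Tdg values are uncertain to that extent. Tet2 and Tet3 did not pass in cells. Tet2 differed by -0.13 and 0.20 (adjusted p = 0.46 and 0.131), and Tet3 by 0.08 with a 95% interval of -0.10 to 0.25 (adjusted p = 0.544).

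Mbd2, the reader of methylated CpG sites, fell by both of its probe sets. The brighter measured 7.25, 7.20, 7.07 and 7.22 in OTX015-treated cells and 7.91, 7.62, 7.65 and 7.58 in control cells, which do not overlap. It fell by 0.50 on the log2 scale (SE 0.08, adjusted p = 0.000586). The second fell by 0.72 (SE 0.21, adjusted p = 0.025), with OTX015 replicate 1 at 4.44, below background, and the other three at 5.36 to 5.63. Without that replicate the difference was -0.45 (adjusted p = 0.00443). The call was lost without control replicate 2 or 4 (highest adjusted p = 0.0758) and with all 6 groups in a single fit (adjusted p = 0.0777).

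Genes around these enzymes in the same cells were counted by their brightest probe set. By that count 38% of all genes passed, 17.9% as higher and 20.1% as lower. Of 15 partners and regulators of the methyltransferases, 5 rose and 3 fell. Kdm1b, a histone demethylase needed for methylation of imprinted genes in mouse oocytes, rose by 0.80 ± 0.06 (adjusted p = 1.7e-06), and Pcna, the replication clamp that Dnmt1 binds, by 0.68 ± 0.07 (adjusted p = 1.93e-05). Cdca7l, a relative of the Hells partner Cdca7, fell by 0.87 (adjusted p = 2.49e-06). Of 9 methyl-CpG readers, 3 rose and 2 fell, with Mbd4, a glycosylase for mismatches at CpG sites, up by 0.81 ± 0.07 (adjusted p = 4.9e-06). Of 9 regulators and cofactor genes of the Tet enzymes, 4 rose and 2 fell. Idh1, which makes the Tet cofactor 2-oxoglutarate, rose by 1.11 ± 0.07 (adjusted p = 3.06e-07), and Ogdh, which consumes it, by 1.18 ± 0.14 (adjusted p = 4.94e-05).

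Of 17 base excision repair and deamination genes, 3 rose and 7 fell, where 38% of all genes passed in these cells. Gadd45a, a stress-induced gene linked to DNA demethylation, had the largest rise of those named, 2.25 ± 0.08 (adjusted p = 3.55e-09), and the glycosylase Neil1 fell by 1.29 (adjusted p = 2.14e-06). Of 11 genes of the methyl donor cycle, 2 rose and 5 fell. Mtr, the methionine synthase, rose by 1.13 ± 0.08 (adjusted p = 1.16e-06) and Shmt2 fell by 1.14 (adjusted p = 2.1e-05). Of 8 genes that take up or process decitabine, 4 rose and 3 fell. They included Dck, the kinase that activates decitabine, which rose by 0.87 ± 0.06 (adjusted p = 6.32e-07), and the deaminase Dctd, which fell by 2.25 (adjusted p = 5.31e-08) to a mean of 3.47, below background, against 5.72 in control cells.

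S phase genes moved with Dnmt1 and Uhrf1 in the same cells. Of 19 measured, 12 rose and 1 fell, where 38% of all genes passed, 17.9% as higher. Their median difference was 0.41 against 0.00 over all genes. Their mean level was 7.37 to 7.48 in OTX015-treated cells and 7.03 to 7.13 in control cells. Cdc6, a replication licensing factor, rose by 0.91 ± 0.09 (adjusted p = 7.53e-06), while thymidine kinase Tk1 fell by 0.89 (adjusted p = 5.67e-06). Of 13 mitosis genes, 5 rose, and Ccnb2 and Cenpa fell. Whether the share of cells in S phase bears on the rise of Dnmt1 and Uhrf1 was not tested. None of 15 germline genes that DNA methylation keeps silent in body cells passed, in either direction, and their mean level stayed near 2.8 in both groups, below background.

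In tumours of mice given OTX015, Tet3, Dnmt3b and 1 Dnmt3a probe set were lower than in their control tumours, and no probe set of the 10 genes was higher. Thus 4 of the 20 passed, all lower, where 16.7% of all probe sets passed, 8.58% as higher and 8.08% as lower. By brightest probe set 2 of 9 genes passed, both lower, where 16.7% of all genes passed (8.9% higher, 7.81% lower). The median difference of the 20 was -0.05, against 0.00 over all probe sets. In the deposited values, where the OTX015-treated arrays lie lower as a whole (median difference of all probe sets -0.21), 10 of the 20 passed. All 10 treated arrays had deposited means of 4.35 to 4.39, against 4.55 to 4.64 in all other arrays. The drug and any difference in array processing therefore cannot be told apart here, also after scaling. With dim probe sets left out, 1522 probe sets of the array passed, against 7518.

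Tet3, an oxidising enzyme of the Tet family, had the lowest adjusted p. It ranged over 3.73, 4.18 and 4.55 (lowest, median, highest) in 10 OTX015-treated tumours and over 4.66, 4.79 and 5.57 in 11 control tumours. No treated array reached a control array. Tet3 fell by 0.71 on the log2 scale (SE 0.11, adjusted p = 0.000107). In the treated tumours 2 of 10 arrays lay above background, against 11 of 11 control arrays, so the size of the fall is limited by the floor of the array.

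Dnmt3b, a de novo methyltransferase, measured 4.29, 4.91 and 5.23 (lowest, median, highest) in OTX015-treated tumours and 4.96, 5.37 and 5.72 in control tumours with its brighter probe set. The groups overlapped slightly, with all 10 treated arrays below the control mean of 5.34. It fell by 0.48 (SE 0.10, adjusted p = 0.00148). The dim second probe set fell by 0.30 (SE 0.05, adjusted p = 0.000255) without overlap, but lay below background in all 10 treated arrays and in all but 2 of the 11 control arrays. Dnmt3a probe set 1423066_PM_at fell by 0.45 (SE 0.12, adjusted p = 0.0135), with 5.37, 5.64 and 5.78 in treated and 5.16, 6.09 and 6.57 in control tumours. All 10 treated arrays lay below the control mean of 6.05. The other four Dnmt3a probe sets differed by -0.19 to 0.08 and did not pass (lowest adjusted p = 0.138).

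Dnmt1 and Uhrf1, which rose in OTX015-treated cells, did not pass in tumours. Dnmt1 averaged 8.24 ± 0.25 in OTX015-treated tumours (SD, n = 10) and 8.20 ± 0.19 in control tumours (SD, n = 11), a difference of 0.04 with a 95% interval of -0.15 to 0.23. Uhrf1 differed by -0.05 (95% interval -0.39 to 0.29) and its second probe set by 0.04. The 3 Hells probe sets differed by -0.12, -0.02 and 0.04, those of Tdg by -0.07 and 0.00, those of Mbd2 by 0.04 and -0.05, and those of Tet2 by -0.10 and 0.14, and none passed. Treated replicate 4 was the lowest of its group for Dnmt1 at 7.73, for Uhrf1 at 7.23 and for Hells at 5.11, and it also had the lowest mean correlation with its group over all probe sets, 0.980.

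By brightest probe set 16.7% of all genes passed in these tumours, 8.9% as higher and 7.81% as lower. Of 15 methyltransferase partners 1 rose and 1 fell. Dnmt3l, the catalytically inactive cofactor of Dnmt3a, rose by 0.35 ± 0.07 (adjusted p = 0.00214, both means below background), and Zbtb24 fell by 0.24 (adjusted p = 0.0238). Of 9 methyl-CpG readers, 2 fell, and of 17 repair and deamination genes 1 rose and 3 fell, including the cytidine deaminase Apobec1, which fell by 0.67 (adjusted p = 0.00272). Of 9 Tet regulators and cofactor genes 2 rose, Ogdh by 0.54 ± 0.09 (adjusted p = 0.000255) and D2hgdh, and Cxxc5 fell. Of 11 methyl donor genes only Mtr passed, and fell by 0.38 (adjusted p = 0.0254), and none of the 8 decitabine genes passed. Of 19 S phase genes 1 rose, the replication factor Gins2, by 0.48 ± 0.12 (adjusted p = 0.0102). Of 15 germline genes 3 rose and 2 fell, all with means below background, and Brdt, the BET protein of the testis, rose by 0.35 ± 0.04 (adjusted p = 6.07e-06).

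Leukocyte markers were lower in the same tumours as Tet3 and Dnmt3b. Of the 9 leukocyte markers, 4 fell and none rose, with a median difference of -0.40, where 7.81% of all genes passed as lower. The mean level of the list ranged over 4.51 to 6.34 in OTX015-treated and 5.29 to 7.07 in control tumours. Ptprc, the common leukocyte antigen, averaged 5.82 ± 0.84 in OTX015-treated tumours (SD, n = 10) and 7.16 ± 0.88 in control tumours (SD, n = 11), a fall of 1.34 (adjusted p = 0.0104). In cultured control cells Ptprc averaged 3.50, Tet3 4.66 and the brighter Dnmt3b probe set 5.43, against the background level of 4.47. Of 5 fibroblast markers 1 passed, Lum, which rose by 1.23 ± 0.21 (adjusted p = 0.000219). The part of host cells in the lower Tet3 and Dnmt3b of the tumours was not tested.

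**Figure D2:**
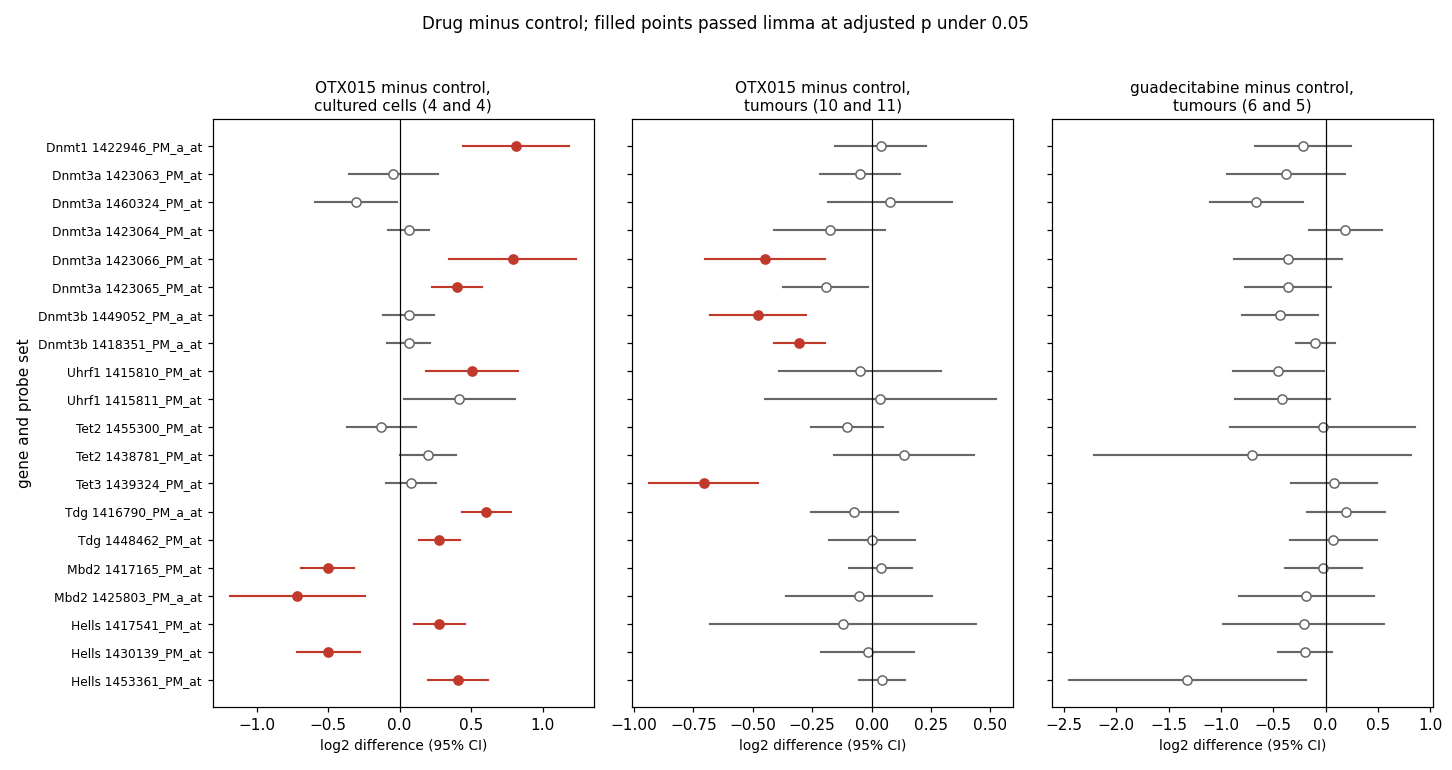
Log2 difference, drug minus control, with its 95% interval for the 20 probe sets in cultured cells with OTX015 (left), tumours with OTX015 (middle) and tumours with guadecitabine (right). Filled points passed limma at an adjusted p under 0.05: 11 probe sets in cells, 4 in OTX015-treated tumours and 0 in guadecitabine-treated tumours. The horizontal scales differ between panels.

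In tumours of mice given guadecitabine no probe set of the 10 genes passed, and none of the 45141 on the array did (0%), with a lowest adjusted p of 0.0914 by limma. At an unadjusted p under 0.05, 3504 probe sets lay beyond the threshold, 1998 higher and 1506 lower, among them 4 of the 20. The 20 had a median difference of -0.21, with 16 negative and 4 positive, against a median of 0.03 over all probe sets. The 4 belong to 4 genes, all on the low side. With all 6 groups in a single fit, which pools their spread, 1461 probe sets passed, 2 of them among the 20 (Dnmt3a 1460324_PM_at and Hells 1453361_PM_at).

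Uhrf1 ranged over 7.36, 8.33 and 8.58 (lowest, median, highest) in 6 guadecitabine-treated tumours and measured 8.51, 8.49, 8.86, 8.57 and 8.53 in 5 control tumours. The difference was -0.45 ± 0.20 (SE; p = 0.0425 unadjusted, adjusted p = 0.636, limma), with all 6 treated arrays below the control mean of 8.59. Dnmt3b ranged over 5.26, 5.56 and 6.01 in treated tumours and measured 5.98, 6.30, 6.08, 6.20 and 5.61 in control tumours, a difference of -0.44 ± 0.16 (limma, p = 0.0226 unadjusted, adjusted p = 0.62). The groups overlapped for both genes. Dnmt3a probe set 1460324_PM_at ranged over 6.74, 7.12 and 7.87 in treated and measured 7.96, 7.76, 8.27, 7.83 and 7.36 in control tumours, a difference of -0.66 ± 0.20 (limma, p = 0.0076 unadjusted, adjusted p = 0.579).

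Dnmt1, the protein that decitabine traps, ranged over 7.62, 8.44 and 8.99 in guadecitabine-treated tumours and measured 8.83, 8.30, 8.80, 8.57 and 8.38 in control tumours. Its difference of -0.22 had a 95% interval of -0.68 to 0.24 (adjusted p = 0.805). Treated arrays lay both above and below the 5 controls. Tet3 differed by 0.08, Tdg by 0.19 and 0.07 and Mbd2 by -0.02 and -0.19, with intervals that include 0 in each case. Tet2 probe set 1438781_PM_at differed by -0.70 (95% interval -2.22 to 0.81, adjusted p = 0.809). Over the fits that each left out 1 array this difference spanned -1.08 to -0.15, the latter without treated replicate 2. The second Tet2 probe set differed by -0.03 (95% interval -0.91 to 0.86, adjusted p = 0.992). The dim Hells probe set differed by -1.32 ± 0.52 (adjusted p = 0.627) and is taken up again below with Tet2.

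None of the 15 measured germline genes, which methylation loss is known to release in many cell types, passed in guadecitabine-treated tumours. Their median difference was 0.06 against 0.05 over all genes, and none had a mean above background in either group. The mean level of this list spanned 2.79 to 2.95 in treated and 2.69 to 2.78 in control tumours. These ranges did not overlap, but both lay below background, and this difference of the list mean was not tested. The largest of the named differences was that of Sycp3, a protein of the meiotic chromosome axis, at 0.57 ± 0.25 (adjusted p = 0.636), with means of 3.17 in treated and 2.60 in control tumours. The S phase list had a median difference of -0.25 with no gene past the test, and its mean level spanned 6.53 to 7.77 in treated and 7.16 to 7.66 in control tumours. No gene of the methyltransferase partner, reader, Tet cofactor, repair, methyl donor or decitabine lists passed. As no probe set of the whole array passed for guadecitabine, the lack of calls is not particular to any of these lists, the germline list included.

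By brightest probe set, control tumours of the guadecitabine experiment stood above control cultured cells in Dnmt3a, Dnmt1, Uhrf1 and Tdg, and these 4 calls held in the deposited values and under median centring. In the OTX015 experiment the same 4 genes passed as higher, but all 4 calls were lost with arrays centred on their medians, and those of Dnmt1 and Tdg also in the deposited values. Both sets of control tumours were set against the same 4 control cell arrays, so these comparisons share their control samples and are given side by side. In the OTX015 experiment 10 of the 20 probe sets passed, 9 higher and 1 lower, where 36.3% of all probe sets passed (18.4% higher, 17.9% lower). In the guadecitabine experiment 16 passed, 15 higher and 1 lower, where 37.7% passed (16.5% higher, 21.3% lower). By brightest probe set, 4 of 9 genes passed in the OTX015 experiment, all higher, where 41.3% of all genes passed (21.3% higher, 20% lower), and 7 in the guadecitabine experiment, 6 higher and 1 lower, where 37.2% passed (12.8% higher, 24.4% lower). The balance of higher and lower calls depended on the scaling. In the OTX015 experiment it was 5 probe sets higher and 4 lower in the deposited values (2 and 3 genes), and 3 higher and 5 lower under median centring (0 and 3 genes). The 3 genes that passed as lower in both were Dnmt3b (-0.36 and -0.45, adjusted p = 0.02 and 0.0113), Hells (-0.87 and -0.96, adjusted p = 0.0354 and 0.0351) and Tet2 probe set 1455300_PM_at (-0.48 and -0.57, adjusted p = 0.00176 and 0.00153). In the guadecitabine experiment the split was 15 higher and 3 lower in the deposited values, and 11 higher and 3 lower under median centring. The labels name no batch that tumours and cells share, so growth in the animal and any batch cannot be told apart.

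Dnmt3a passed as higher in tumours by all 5 of its probe sets in both experiments, though not under every scaling. Its brightest probe set ranged over 7.17, 7.53 and 7.85 (lowest, median, highest) in 11 control tumours of the OTX015 experiment and measured 8.58, 7.79, 8.66, 8.22 and 7.73 in the 5 of the guadecitabine experiment, against 6.93, 6.99, 6.23 and 6.87 in control cells. Neither tumour group overlapped with the cells. The rises were 0.80 ± 0.14 (adjusted p = 0.000292) and 1.44 ± 0.23 (adjusted p = 0.0009), and over the 5 probe sets they spanned 0.64 to 1.29 and 0.44 to 1.55. With arrays centred on their medians instead, the rise of the brightest probe set in the OTX015 experiment was 0.32 and did not pass (adjusted p = 0.125). There 1460324_PM_at differed by 0.29 in the deposited values and by 0.19 under median centring and passed in neither (adjusted p = 0.215 and 0.461). In the guadecitabine experiment 1423064_PM_at did not pass under median centring (0.21, adjusted p = 0.0627).

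Among the maintenance genes, Uhrf1 ranged over 7.32, 8.23 and 8.80 in control tumours of the OTX015 experiment, against 6.82 to 7.41 in control cells, with a slight overlap and a rise of 0.999 ± 0.19 (adjusted p = 0.000889). In the guadecitabine experiment it rose by 1.36 ± 0.13 (adjusted p = 4.47e-05). The second Uhrf1 probe set rose by 0.83 ± 0.17 in the guadecitabine experiment (adjusted p = 0.00332) and differed by 0.70 ± 0.29 in the OTX015 experiment, where it did not pass (adjusted p = 0.0666). Dnmt1 rose by 0.61 ± 0.14 (adjusted p = 0.00334) and 0.98 ± 0.19 (adjusted p = 0.00268). Under median centring the differences of Dnmt1 and Uhrf1 in the OTX015 experiment were 0.19 and 0.56 and did not pass (adjusted p = 0.476 and 0.113), nor did Dnmt1 in the deposited values (0.28, adjusted p = 0.196). Tdg rose by 0.43 ± 0.10 (adjusted p = 0.00388) and 0.75 ± 0.10 (adjusted p = 0.000277) by its brighter probe set, where the OTX015 experiment's difference was 0.14 in the deposited values and 0.05 under median centring (adjusted p = 0.279 and 0.785). Its second probe set rose only in the guadecitabine experiment, by 0.63 ± 0.07 (adjusted p = 0.000101). In the OTX015 experiment it differed by 0.15, and by -0.33 with arrays centred on their medians (adjusted p = 0.0489).

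Hells again split by probe set. In the guadecitabine experiment the brightest fell by 0.32 (SE 0.10, adjusted p = 0.0255) and 1430139_PM_at rose by 0.58 ± 0.09 (adjusted p = 0.000793). The dim 1453361_PM_at rose by 2.23 (adjusted p = 0.00155), from a mean of 2.71 in control cells, below background, to 4.94. The mean of the Hells probe sets, which includes the dim one, was 0.83 higher in tumours (adjusted p = 0.000952). In the OTX015 experiment the dim probe set fell by 0.28 (adjusted p = 0.00253), with both means below background. In the OTX015 experiment 1430139_PM_at rose by 0.35 ± 0.12 (adjusted p = 0.0297), but differed by -0.06 in the deposited values and by -0.16 under median centring, and the call was lost without cell control replicate 2 or 3 (highest adjusted p = 0.109). The fall of the brightest probe set in the guadecitabine experiment was lost without tumour control replicate 3 or 4 or cell control replicate 1 or 3 (highest adjusted p = 0.0793). Dnmt3b rose by 0.60 ± 0.12 (adjusted p = 0.0037) in the guadecitabine experiment, a call lost under median centring (0.32, adjusted p = 0.085), and its difference in the OTX015 experiment was -0.10 (adjusted p = 0.519), where the other scalings call it lower, as given above. Tet3 passed in neither. The brighter Mbd2 probe set differed by 0.21 in the OTX015 experiment (adjusted p = 0.0704) and by -0.15 in the guadecitabine experiment (adjusted p = 0.427). The first of these passed as higher without control cell replicate 1 or control tumour replicate 10 (lowest adjusted p = 0.031), and the other passed as lower in the deposited values and under median centring (-0.42 and -0.52, adjusted p = 0.0268 and 0.0098). The second Mbd2 probe set differed by 0.21 (adjusted p = 0.396) in the OTX015 experiment and by -0.61 (adjusted p = 0.0535) in the guadecitabine experiment. That last difference passed as lower in the deposited values (-0.82, adjusted p = 0.0084), under median centring (-0.92, adjusted p = 0.00475) and without control tumour replicate 5 (-0.80, adjusted p = 0.0014).

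S phase genes and leukocyte markers moved with these rises. Over all genes by brightest probe set, 21.3% passed as higher in the OTX015 experiment and 12.8% in the guadecitabine experiment. Of 19 S phase genes, 12 rose and none fell in the OTX015 experiment (median 0.42), and 9 rose and 1 fell in the guadecitabine experiment (median 0.34). Of 9 leukocyte markers, 8 rose in the OTX015 experiment (median 2.02) and 7 in the guadecitabine experiment (median 0.61). Both erythroid genes measured, Hba-a1 and Alas2, rose in each. The part of host cells in the higher Dnmt3a, Dnmt1, Uhrf1 and Tdg was not tested.

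**Figure D3:**
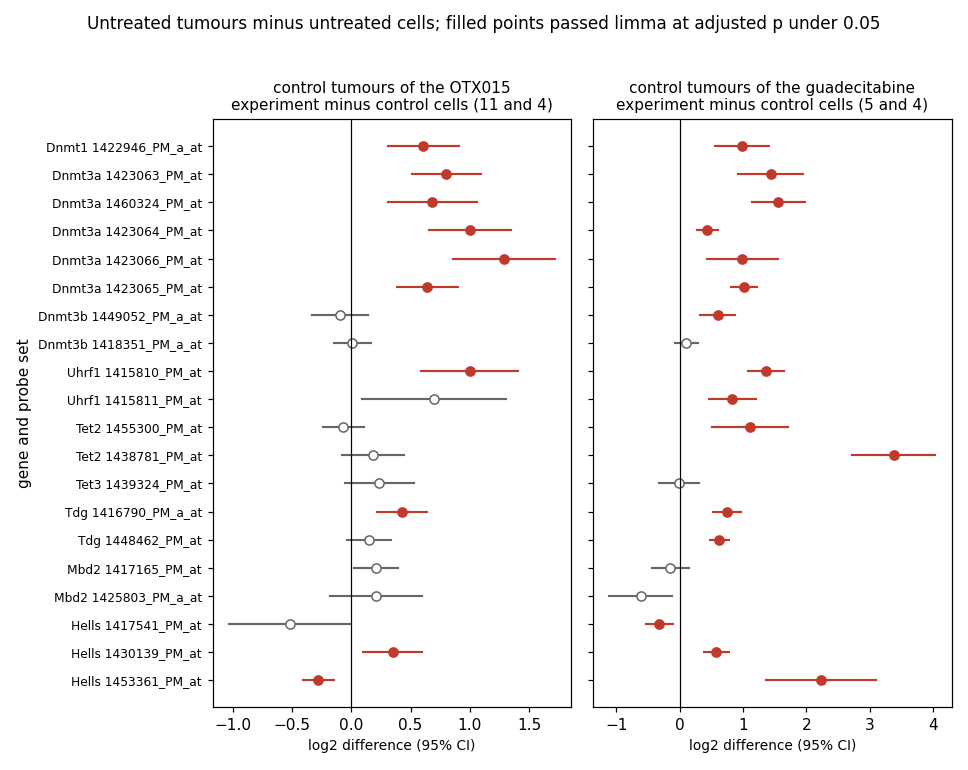
Log2 difference, control tumours minus control cells, with its 95% interval for the 20 probe sets in the OTX015 experiment (left) and the guadecitabine experiment (right). Filled points passed limma at an adjusted p under 0.05, 10 on the left and 16 on the right, and Tet2 probe set 1438781_PM_at stands at 3.38 on the right and 0.18 on the left. The horizontal scales differ between panels.

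Tet2, the Tet enzyme with the widest spread here, was high in the tumours of the guadecitabine experiment whether treated or not. Probe set 1438781_PM_at measured 8.69, 8.65, 9.08, 8.68 and 7.34 in control tumours of the guadecitabine experiment, against 5.14, 4.99, 5.31 and 4.99 in control cells, a rise of 3.38 ± 0.29, or 10.4-fold (adjusted p = 2.73e-05). In control tumours of the OTX015 experiment it ranged over 4.94, 5.26 and 5.72 and differed from cells by 0.18 (adjusted p = 0.277). The second Tet2 probe set rose by 1.11 ± 0.27 (adjusted p = 0.00823) in the guadecitabine experiment and differed by -0.07 in the OTX015 experiment. Its rise did not pass under median centring (adjusted p = 0.0612).

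The control tumours of both experiments were then compared directly, a comparison chosen after the data were seen. In the guadecitabine experiment minus the OTX015 experiment, 13 of the 20 probe sets passed, 10 higher and 3 lower, where 37.3% of all probe sets passed (14.2% higher, 23.1% lower). By brightest probe set 6 of 9 genes passed, 5 higher and 1 lower, where 37.1% of all genes passed (9.31% higher, 27.8% lower). The Tet2 probe sets differed by 3.20 ± 0.20 (adjusted p = 1.2e-08) and 1.18 ± 0.17 (adjusted p = 5.03e-05), and the groups did not overlap in either. The dim Hells probe set differed by 2.51 ± 0.24 (adjusted p = 1.12e-06), with 5.11, 5.75, 5.09, 5.35 and 3.38 in the guadecitabine experiment and 2.29 to 2.65 in the OTX015 experiment. Dnmt3b was higher by 0.70 ± 0.12 (adjusted p = 0.000342), and Mbd2 differed by -0.36 and -0.82 (adjusted p = 0.0106 and 0.0057). The first of these Mbd2 calls was lost in the deposited values (-0.30, adjusted p = 0.0639) and under median centring (-0.31, adjusted p = 0.0829). Of 9 leukocyte markers 5 were lower in the guadecitabine experiment, with a median difference of -0.76.

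Malat1, Neat1 and Kcnq1ot1 are 3 RNAs that stay in the nucleus, a list chosen after the data were seen. Like Tet2, they were higher in control tumours of the guadecitabine experiment than in those of the OTX015 experiment. Their mean level was 6.64 to 8.37 in the 5 control tumours of the guadecitabine experiment and 5.11 to 6.05 in the 11 of the OTX015 experiment. Guadecitabine-treated replicate 2 had the lowest value of its group for them, 5.23, and for Tet2 probe set 1438781_PM_at, 5.05, while the other five treated tumours measured 7.37 to 9.67 for Tet2. Control replicate 5 was likewise the lowest of its group for both, at 6.64 and 7.34. In OTX015-treated cells the same RNAs stood at 7.07 to 7.63, against 5.89 to 6.09 in control cells, yet Tet2 probe set 1438781_PM_at stayed at 5.20 to 5.47 and 4.99 to 5.31. Xist, a further nuclear RNA outside that list, went the other way. It averaged 4.93 in control tumours of the guadecitabine experiment, 6.76 in those of the OTX015 experiment and 7.21 in guadecitabine-treated tumours. The part of nuclear or unprocessed RNA in the Tet2 and Hells values was not tested. Experiment and any difference in handling between the experiments cannot be told apart.

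**Figure D4:**
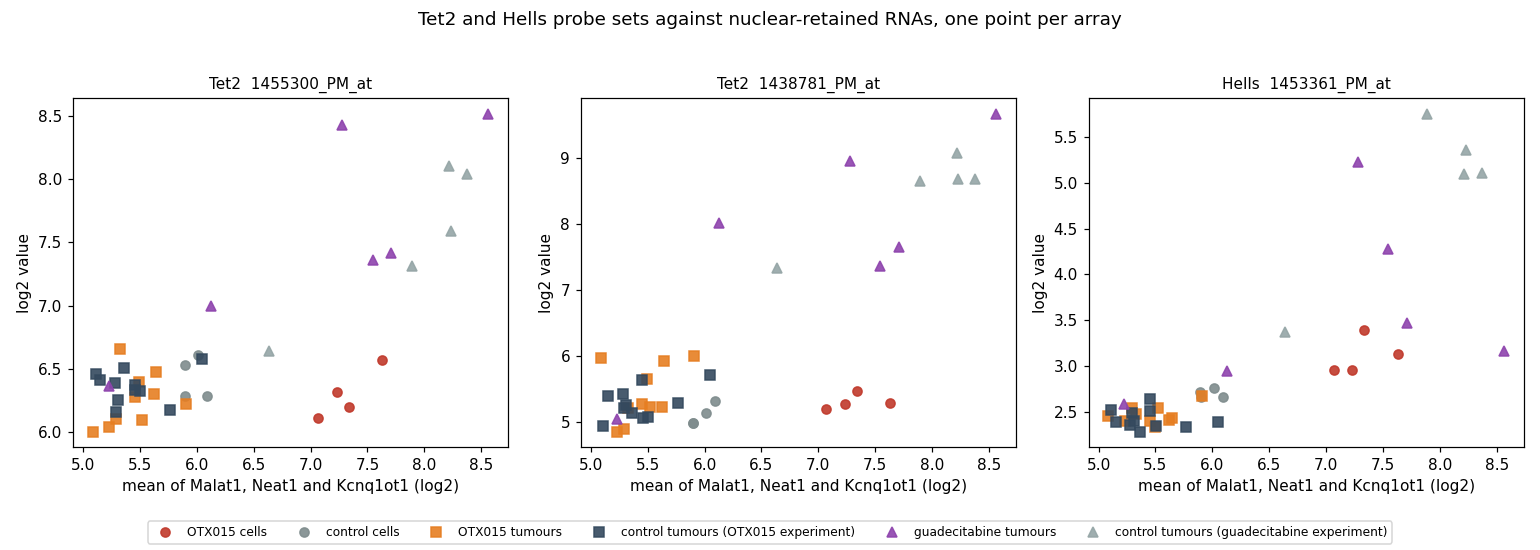
Log2 value of Tet2 probe sets 1455300_PM_at and 1438781_PM_at and of Hells probe set 1453361_PM_at, each over 2-fold apart between the control tumours of the experiments, (vertical axes) against the mean log2 level of Malat1, Neat1 and Kcnq1ot1 (horizontal axis), 1 point for each of 40 arrays, coloured by group. Tumours of the guadecitabine experiment (triangles) spread from 5.23 to 8.56 along the horizontal axis, and OTX015-treated cells lie at 7.07 to 7.63 with Tet2 1438781_PM_at at 5.20 to 5.47.

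The OTX015 effects in tumours and in cells were compared by testing their difference. Doses and times are not given, tumours hold host cells, and the treated tumour arrays lie lower as a set in the deposited values. These cannot be told apart from a different action of the drug on these genes. Hexim1 and Myc passed in cells and not in tumours, as given above. Of the 20 probe sets 10 passed, 2 with a more positive and 8 with a more negative effect in tumours, where 25.9% of all probe sets passed (13.4% more positive, 12.6% more negative). In the deposited values 9 passed, all more negative. By brightest probe set 5 of 9 genes passed, 1 more positive and 4 more negative, where 31.6% of all genes passed (17.5% and 14.1%). Dnmt1 had an effect of 0.04 in tumours and 0.81 in cells (difference -0.77 ± 0.19, adjusted p = 0.00321), a call lost under median centring (adjusted p = 0.0819). Tdg had -0.07 in tumours and 0.61 in cells by its brighter probe set (difference -0.68 ± 0.15, adjusted p = 0.00113). Its second probe set differed by -0.28 and did not pass (adjusted p = 0.189). Dnmt3a probe set 1423066_PM_at moved in opposite directions, with -0.45 in tumours and 0.79 in cells (difference -1.24 ± 0.25, adjusted p = 0.000322). Dnmt3a 1423065_PM_at differed by -0.59 (adjusted p = 0.00384). The brightest Dnmt3a probe set, 1460324_PM_at and 1423064_PM_at differed by -0.003, 0.38 and -0.24 and did not pass (adjusted p = 0.992, 0.236 and 0.408). Tet3 had -0.71 in tumours and 0.08 in cells (difference -0.78 ± 0.19, adjusted p = 0.00229).

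By brightest probe set, Mbd2 was the gene whose effect was more positive in tumours, with 0.04 there and -0.50 in cells (difference 0.54 ± 0.12, adjusted p = 0.00064). That call was lost in the deposited values (adjusted p = 0.127). The second Mbd2 probe set differed by 0.66 and did not pass (adjusted p = 0.0971). Dnmt3b differed by -0.54 ± 0.17 (adjusted p = 0.0169), a call that was lost without OTX015-treated cell replicate 1 (adjusted p = 0.0506) and under median centring (adjusted p = 0.0794). For Uhrf1 the difference of -0.55 had a 95% interval of -1.15 to 0.05 and did not pass (adjusted p = 0.178), so its rise in cells is not shown to differ from its effect in tumours.

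The effects of OTX015 and of guadecitabine in tumours differed at 2 of the 20 probe sets, 1 in each direction, where 4.61% of all probe sets passed (2.41% positive, 2.21% negative). By brightest probe set 1 of 9 genes passed, with a negative difference, where 4.19% of all genes passed (1.6% positive, 2.6% negative). Tet3 had -0.71 with OTX015 and 0.08 with guadecitabine (difference -0.79 ± 0.21, adjusted p = 0.0268). The dim Hells probe set had 0.04 and -1.32 (difference 1.36 ± 0.39, adjusted p = 0.0381). The Tet3 call was lost when dim probe sets were left out of the fit (adjusted p = 0.0511) and without guadecitabine control replicate 1, 3 or 4 or guadecitabine-treated replicate 3 (highest adjusted p = 0.068). The Hells call was lost in 9 of 32 fits that each left out 1 array (highest adjusted p = 0.103). Doses and times are not given for either drug, so the 2 are set side by side only as given.

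**Figure D5:**
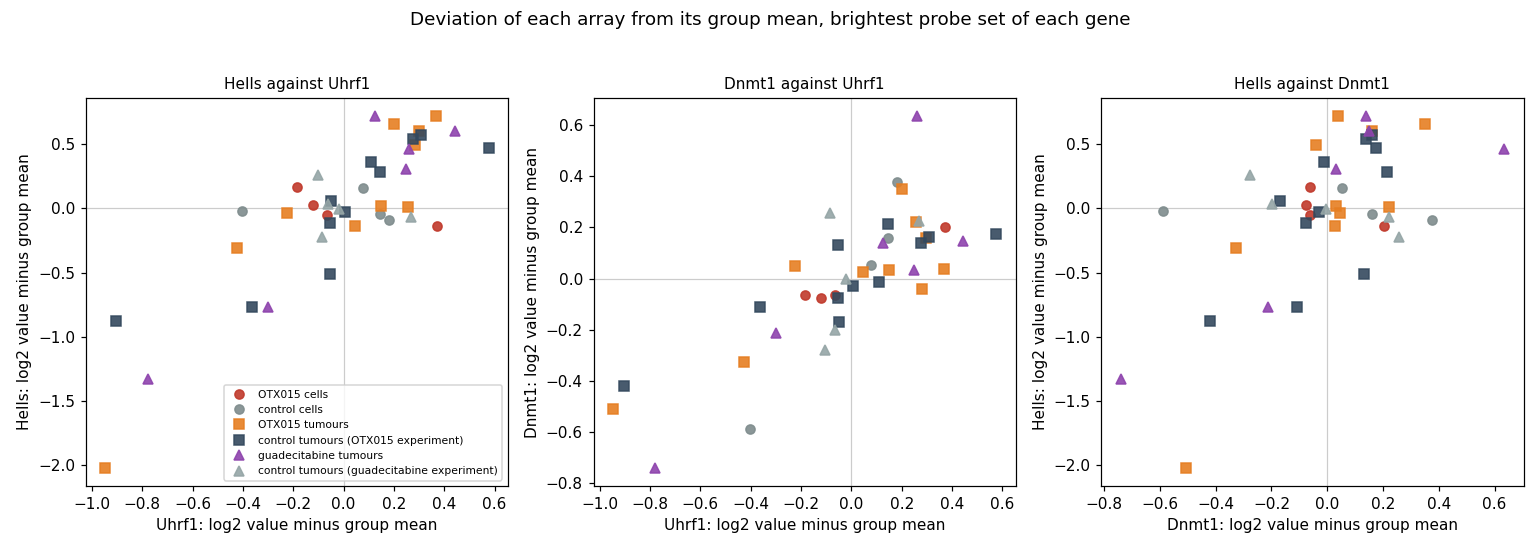
Deviation of each of 40 arrays from its group mean (log2) for Hells against Uhrf1, Dnmt1 against Uhrf1 and Hells against Dnmt1, by brightest probe set, coloured by group. Points run from low on both axes to high on both, with Pearson r of 0.84, 0.80 and 0.62, and OTX015-treated tumour replicate 4 lies lowest for Hells.

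Within groups, the maintenance genes varied together. Each array's deviation from its group mean was compared over 40 arrays for all 36 pairs of the 9 genes, with permutation within groups (100000 draws, two-sided, smallest possible p 1e-05) and Benjamini-Hochberg adjustment over the 36 pairs. Uhrf1 and Hells had a Pearson r of 0.84 and a Spearman rho of 0.68 (permutation p = 1e-05 and 3e-05, adjusted p = 0.00018 and 0.00054). Without the 2 farthest arrays r was 0.76, where farthest is judged by the first gene named of a pair alone. Arrays far out only in the second gene stay in. Dnmt1 and Uhrf1 had r = 0.80 and rho = 0.75 (permutation p = 1e-05 for both, adjusted p = 0.00018 and 0.00036), and r = 0.75 without the 2 farthest. Dnmt1 and Hells had r = 0.62 and rho = 0.40 (permutation p = 0.00011 and 0.0113, adjusted p = 0.00132 and 0.0581). For Uhrf1 and Hells r was 0.92 among OTX015-treated tumours, 0.89 among their controls and 0.95 among guadecitabine-treated tumours. Values of 1 array share its RNA and its mix of cells.

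Tet3 ran against the brightest Hells probe set, with r = -0.56 and rho = -0.45 (permutation p = 0.00085 and 0.00879, adjusted p = 0.00765 and 0.0527). Without the 2 arrays farthest for Tet3, r was -0.61. Its correlations with Uhrf1 (r = -0.46, rho = -0.37, permutation p = 0.00765 and 0.0237, adjusted p = 0.0344 and 0.0947) and Dnmt1 (r = -0.39, rho = -0.25, permutation p = 0.0209 and 0.145, adjusted p = 0.0752 and 0.29) lay closer to 0, and with Dnmt1 r was -0.04 among control tumours of the OTX015 experiment. Dnmt3a and Tet2 had r = 0.65 and rho = 0.53 (permutation p = 0.00194 and 0.00277, adjusted p = 0.0128 and 0.0249), but r was 0.14 among control tumours of the OTX015 experiment. The genes most like each maintenance gene in these deviations, out of 9091 genes above background, were Cad, Pfas, Utp20, Nup205 and Mki67 for Dnmt1 (r = 0.90 to 0.84), Mcm2, Cdt1, Smchd1, Atad2 and Srsf1 for Uhrf1 (r = 0.92 to 0.85) and Trip13, Rad51ap1, Hus1, Pola1 and Ncapg for Hells (r = 0.95 to 0.90). Mcm2 and Cdt1 license replication origins, Cad and Pfas make nucleotide bases, and Pola1 is a DNA polymerase.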

How the data were processed

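RNA of 40 samples was measured on Affymetrix 3′ arrays from 500 ng of total RNA per the labels' protocols. The deposited log2 values of 45141 probe sets were made by the authors, who per the submitters' processing notes used RMA and the Transcriptome Analysis Console. Versions are not given in the sources used here. Which arrays RMA treated together is not given either. RMA corrects background, brings arrays to 1 distribution and summarises probes, so it compresses differences near the background. Arrays give no read depth, and the number of arrays limits the precision.

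The log2 values were quantile normalized over all 40 arrays. Probe sets were named through the platform annotation, with symbols updated through RefSeq: 28898 named 1 gene, 551 several and 15692 none here. All probe sets naming 1 member alone were reported. Where 1 value per gene was needed, its brightest probe set over all arrays was taken. From each other list up to 4 called genes by smallest adjusted p were named, or 2 where none was called, and the 5 genes most like Dnmt1, Uhrf1 and Hells. The members and lists were chosen with earlier results of these data known.

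Each comparison was fitted on its own groups with limma 3.58.1 in R 4.3.3 (lmFit, eBayes, two-sided, Benjamini-Hochberg over all 45141 probe sets, call at adjusted p under 0.05). The scripts were tested on simulated data. No 2 arrays were identical (highest correlation 0.997). Alternatives were the deposited values, median centring, normalization of the fitted arrays only, leaving out dim probe sets, 2 ways to represent a gene, trended robust variance, all groups in 1 fit, the replicate number as a block and leaving out each array. Genes moving together within groups were compared by permutation. Promoter windows came from RefSeq, GRCm38.p6. Labels give no batch.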

Additional observations from a re-analysis of the deposited data

Results flagged for a closer look

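Among 100 groups of 4 to 10 arrays, 12 held 1 array far from the rest by Dixon's criterion, where chance gives about 1 in 20. In cells, OTX015-treated replicate 1 was high for Dnmt1 (8.61), control replicate 3 was low for Dnmt3a probe sets 1423063_PM_at (6.23) and 1460324_PM_at (5.82), control replicate 2 was high for Dnmt3a 1423065_PM_at (4.59) and control replicate 1 was high for Tdg 1416790_PM_a_at (8.19). In OTX015-treated tumours, replicate 4 was low for Tdg 1448462_PM_at (6.80) and Hells 1417541_PM_at (5.11). In guadecitabine-treated tumours, replicate 1 was low for Dnmt3a 1423066_PM_at (4.66). In their controls, replicate 2 was high for Dnmt3b 1418351_PM_a_at (4.65), replicate 3 was high for Uhrf1 (8.86), and replicate 5 was low for Tet2 1438781_PM_at (7.34) and Hells 1453361_PM_at (3.38).

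The effect of OTX015 differed between tumours and cells by limma at 10 probe sets. The differences, tumours minus cells, were -0.77 for Dnmt1, -1.24 and -0.59 for Dnmt3a 1423066_PM_at and 1423065_PM_at, -0.54 and -0.37 for Dnmt3b, -0.78 for Tet3, -0.68 for Tdg 1416790_PM_a_at, 0.54 for Mbd2 1417165_PM_at, and 0.48 and -0.36 for Hells 1430139_PM_at and 1453361_PM_at. The call of Hells 1430139_PM_at (adjusted p = 0.034) was lost in the deposited values (0.35, adjusted p = 0.128) and in 5 of 29 fits that each left out 1 array (highest adjusted p = 0.107). That of Hells 1453361_PM_at was lost under median centring (adjusted p = 0.0563) and with all 6 groups in a single fit (adjusted p = 0.589). The effects of OTX015 and guadecitabine in tumours differed by -0.79 for Tet3 and 1.36 for Hells 1453361_PM_at.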

How the results depend on the processing

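Of the 20 probe sets, the number called changed by more than 1.5 times as follows. With all 6 groups in a single fit it was 5 for OTX015 in cells (3 genes by brightest probe set, against 11 and 5) and 2 for guadecitabine (against 0). In the deposited values it was 10 for OTX015 in tumours (5 genes, against 4 and 2) and 4 for OTX015 against guadecitabine effects (against 2). With dim probe sets left out, that last count was 0 (0 genes, against 2 and 1). With arrays centred on their medians, 3 genes differed in OTX015 effect between tumours and cells, against 5. Direction turned for Hells 1430139_PM_at in control tumours of the OTX015 experiment minus control cells (-0.062 deposited, -0.16 median-centred) and for Tdg 1448462_PM_at there (-0.33 median-centred). Why it turned with the scaling was not tested. It also turned for Hells in the guadecitabine experiment, from -0.32 by the brightest probe set to 0.83 by the mean of its probe sets. That mean takes in 1430139_PM_at at 0.58 and the dim 1453361_PM_at at 2.23.

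Leaving out 1 array at a time gave 9 to 14 called probe sets (4 to 6 genes) for OTX015 in cells, 4 to 4 (2 to 2) for OTX015 in tumours, 0 to 0 (0 to 0) for guadecitabine, 9 to 11 (4 to 5) and 15 to 17 (6 to 7) for control tumours minus cells in the OTX015 and guadecitabine experiments, 9 to 10 (4 to 5) for the OTX015 effect in tumours minus cells, 0 to 3 (0 to 1) for OTX015 minus guadecitabine and 12 to 15 (5 to 7) for the guadecitabine minus OTX015 experiment's controls. Without control cell replicate 3, Dnmt3a 1423063_PM_at and 1460324_PM_at passed for OTX015 in cells (adjusted p = 0.0272 and 0.000357).

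The labels do not say that replicate numbers pair samples, and deviations of same-numbered samples correlated at 0.34, -0.12, 0.10 and 0.00 in cells, so the numbers were not taken as pairs. With the replicate block the counts were 10 for OTX015 in cells, 4 for OTX015 in tumours, 0 for guadecitabine, 6 and 16 for control tumours minus cells, 7 for the OTX015 effect in tumours minus cells, 0 (0 genes) for OTX015 minus guadecitabine and 7 (2 genes) for the added comparison of controls. Over all probe sets, OTX015 in tumours gave 7518 calls, 26835 in the deposited values and 1522 with dim probe sets left out. Array signal near the background limits Tet3, Dnmt3b 1418351_PM_a_at and Hells 1453361_PM_at.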

Other observations

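Xist, the RNA that coats the inactive X chromosome and that was looked at after the data were seen, ranged over 6.08 to 9.58 in guadecitabine-treated tumours and 4.75 to 5.07 in their controls, which do not overlap. The difference was 2.28 and did not pass limma (adjusted p = 0.495). It ranged over 5.94 to 6.88 in OTX015-treated tumours and 6.00 to 7.86 in their controls, and over 4.60 to 5.21 in OTX015-treated cells and 4.45 to 5.04 in control cells. The labels give no sex for cells or mice.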
